A study of Mus musculus with 11 samples.

Results

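Pou5f1, Sox2, Sall4, Fgf4 and Utf1 were followed across all tables of a study of mouse embryonic stem (ES) cells. These 5 genes were chosen by name, as core pluripotency factors and well-known targets, with earlier results of these data known. All 5 have a row among the 12588 genes of the bulk table. In the single-cell tables, which hold 21926 to 23139 distinct gene names, all 5 have a column in 4 tables, and the table of wild-type cells in serum/LIF on plastic has 4 of them, without Sox2.

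The bulk libraries (Smart-seq2, about 1000 cells per library) came from cells titled wild type, of the line Rex1GFPd2. They were kept in 2i/LIF, a medium with inhibitors of MEK and GSK3 plus the cytokine LIF. Of these 6 libraries, 3 came from cells in soft agarose microgels and 3 from cells on tissue-culture plastic, and the study asked how gel culture changes expression. The 5 single-cell libraries, made with the droplet method inDrop, held wild-type E14 cells (serum/LIF plastic, 2i/LIF plastic and serum/LIF gel) and cells labelled PGHIGH and PGLOW on plastic in serum/LIF, with plakoglobin (Jup) overexpressed from the constitutive CAG promoter. The parent line of the last 2 libraries, and whether each is 1 clone, are not given in the sources used here, and they are called the libraries labelled JupHigh and JupLow. Jup itself was at 47.8 CPM (UMIs scaled to a common total, 95% interval 41.5 to 54.8) in the first and 37.9 (31.1 to 45.7) in the second. In wild-type serum cells it was at 36.7 (28.8 to 46.0). These separate intervals overlap, but no interval of a ratio was computed for Jup. Whether UMIs of the transgene are counted under Jup is not given in the sources used here. These values therefore do not test the labels, which are the submitters' own.

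OCT4, the product of Pou5f1, is a POU-domain factor that binds DNA together with the HMG-box factor SOX2 at composite sites near many ES cell genes, their own genes included. SALL4 is a zinc-finger factor that works with OCT4 and also recruits the NuRD repressor complex. Fgf4, which encodes the growth factor that ES cells secrete and that drives ERK signalling towards exit from pluripotency, and Utf1, which encodes a chromatin-bound protein of undifferentiated cells, are classical joint targets of OCT4 and SOX2.

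Sequences upstream of the RefSeq start sites are shown as a description, and their part in the changes in gel was not tested. They are from RefSeq (GRCm38.p6), 5′ to 3′ on the gene's own strand, and hold no annotated exon base of the gene. The Fgf4 start site lies inside the longer Fgf4 locus of the GENCODE annotation, chr7:144847367-144865243. The Sox2 bases shown end before the GENCODE Sox2 locus, chr3:34650405-34652461. The Pou5f1 and Utf1 sequences, 236 and 183 bases long, stop where the GENCODE exons begin, short of the RefSeq start site. Capitals mark the GC box GGGCGG, the nuclear receptor half-site AGGTCA, the CCAAT box and the repeat TATATA on either strand, and a match on the other strand appears as the reverse complement of these letters.
Pou5f1, chr17:35505782-35506017, plus strand: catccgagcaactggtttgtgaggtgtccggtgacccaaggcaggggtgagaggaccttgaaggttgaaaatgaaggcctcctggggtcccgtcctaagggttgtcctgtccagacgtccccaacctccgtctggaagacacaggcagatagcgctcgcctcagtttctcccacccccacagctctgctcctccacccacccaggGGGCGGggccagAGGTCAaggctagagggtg
Sox2, chr3:34649745-34649994, plus strand: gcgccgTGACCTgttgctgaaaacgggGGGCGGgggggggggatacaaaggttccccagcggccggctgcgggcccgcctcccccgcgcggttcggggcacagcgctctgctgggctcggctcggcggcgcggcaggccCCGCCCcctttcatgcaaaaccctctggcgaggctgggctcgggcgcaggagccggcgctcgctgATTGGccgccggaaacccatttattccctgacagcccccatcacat
Fgf4, chr7:144861136-144861385, plus strand: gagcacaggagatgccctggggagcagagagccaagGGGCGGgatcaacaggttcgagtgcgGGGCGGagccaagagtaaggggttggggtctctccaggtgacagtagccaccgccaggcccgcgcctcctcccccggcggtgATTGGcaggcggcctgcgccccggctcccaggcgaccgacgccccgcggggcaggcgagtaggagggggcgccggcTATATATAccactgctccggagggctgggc
Utf1, chr7:139943606-139943788, plus strand: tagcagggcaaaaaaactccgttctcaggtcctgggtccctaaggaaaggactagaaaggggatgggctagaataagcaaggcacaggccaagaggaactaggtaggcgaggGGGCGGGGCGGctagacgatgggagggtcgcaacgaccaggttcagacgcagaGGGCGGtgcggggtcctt

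A GC box stood in each of these 4 promoters, and in 35.7% of the 32851 mouse promoters in the table, each read from 250 bases before to 50 after the start. AGGTCA stood in the Pou5f1 and Sox2 windows, at -33 and -244 from the start site, and in 16.3% of all promoters. TATATA stood in the Fgf4 window from -30 on, as 2 overlapping matches, and in 5.67% of all promoters. The CCAAT box stood in the windows of Pou5f1, at -12 and so beyond the bases shown, Sox2 and Fgf4, and in 37.4% of all promoters. The letters TATAAA were in none of the 4 and in 13.6% of all promoters. The octamer ATGCAAAT, the core letters bound by POU factors, was in none of the 4 and in 1.74% of all promoters. The SOX letters ATTGTT were in none of the windows shown and in 10.7% of all promoters. They stood, on the other strand, at -159 in a second RefSeq entry of Pou5f1, which starts inside the gene and is not shown. Sall4 is not shown. The known OCT4-SOX2 elements of Fgf4 and Utf1 lie downstream of the coding sequence and so outside these windows. A match is a description of the letters only.

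In the GENCODE M21 annotation of GRCm38, 3 of the 5 loci overlap another gene. Pou5f1 (chr17:35506018-35510772) shares 317 exon bases, 14.1% of its own, with the antisense gene Gm19553, and Sall4 (chr2:168748332-168767943, minus strand) shares 526, or 9.5%, with Gm14261. Sox2 (chr3:34650405-34652461) lies whole inside the long noncoding gene Sox2ot (chr3:34104270-34682619) on the same strand, with 0 shared exon bases. Fgf4 (chr7:144847367-144865243) and Utf1 (chr7:139943789-139945112) overlap no other gene. Whether strand was used in the counting is not given in the sources used here, so sense and antisense reads of Pou5f1 and Sall4 in the shared bases cannot be told apart. Where the single-cell tables have a column for them, Gm19553 held 5 UMIs in wild-type 2i cells and 0 in gel and JupLow cells, and Gm14261 held 0 in JupLow cells. Pou5f1 also has processed pseudogenes, so its counts carry that uncertainty.

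In gel against plastic in 2i/LIF, Pou5f1, Sox2 and Utf1 rose 2.49-fold, 2.85-fold and 3.10-fold, Sall4 fell, and Fgf4 did not pass the test. So 4 of the 5 genes were called at an adjusted p under 0.05 (limma), 3 higher and 1 lower. Over all 7878 tested genes 36.9% were called, 18.3% higher and 18.6% lower in gel, and the median log2 fold change was -0.02. The gel and plastic values did not overlap for 4 of the 5, as for 49.5% of tested genes. The libraries held 637235 to 2583256 reads. Values are scaled read counts, and each log2 fold change compares log2(value + 0.5), which understates changes of low genes. The labels call the libraries triplicates without saying that they are separate cultures, so p-values measure the spread between these libraries, which may be technical. In such bulk libraries fewer cells expressing a gene and less RNA per cell cannot be told apart.

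**Figure D1:**
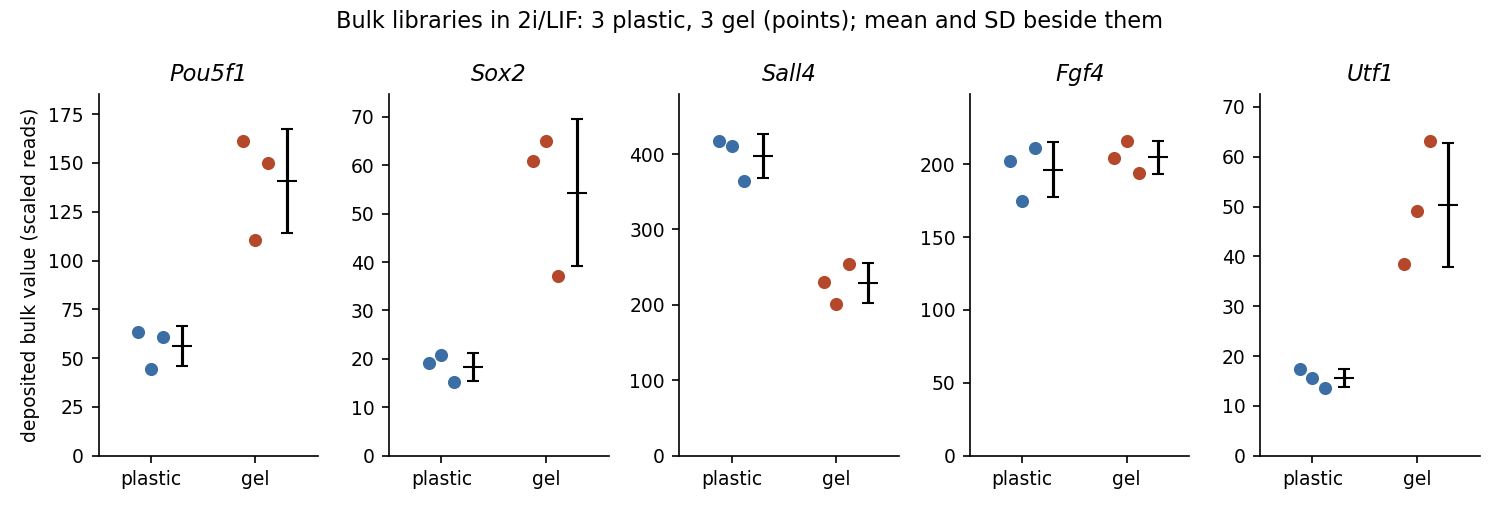
Deposited bulk value (scaled reads, linear axis from 0) of each gene in the 3 plastic and 3 gel libraries, as points, with the mean and SD beside them. The gel points lie above all plastic points for Pou5f1, Sox2 and Utf1, below them for Sall4, and among them for Fgf4.

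Pou5f1 stood at 161, 111 and 150 in the 3 gel libraries and at 63.2, 44.6 and 60.7 on plastic. The lowest gel library was above the highest plastic library. The means were 141 ± 26.7 and 56.2 ± 10.1 (SD, n = 3 each), a log2 fold change of 1.31 (SE 0.17, 95% interval 0.95 to 1.68, limma adjusted p = 2.1e-05). These values rest on 90 to 143 reads per gel library and 40 to 152 per plastic library.

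Sox2 stood at 60.9, 65.1 and 37.1 in gel and at 19.1, 20.7 and 15.2 on plastic. The third gel library was the lowest of its group and still above every plastic library. The log2 fold change was 1.51 (SE 0.24, limma adjusted p = 0.00012). Sox2 reads numbered 27 to 54 per gel library and 10 to 53 per plastic library, fewer than for Pou5f1. Neither Sox2ot, Gm19553 nor Gm14261 has a row in the bulk table.

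Sall4 moved the other way. It stood at 230, 201 and 254 in gel and at 418, 410 and 364 on plastic, and the groups did not overlap. The means were 229 ± 26.5 and 397 ± 28.9 (SD, n = 3 each), and Sall4 fell by 0.80 on the log2 scale (SE 0.11, limma adjusted p = 4.4e-05). With 164 to 204 reads per gel library and 240 to 1048 per plastic library it was the most deeply covered of the 3 factors.

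Of the targets, Fgf4 stood at 204, 216 and 194 in gel and at 202, 175 and 211 on plastic, and the groups overlapped. Its log2 fold change was 0.07 (SE 0.12, 95% interval -0.18 to 0.31, limma adjusted p = 0.70). A change in Fgf4 as large as that of Pou5f1 or Sox2 lies outside this interval.

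Utf1 stood at 38.4, 49.1 and 63.2 in gel and at 17.5, 15.7 and 13.7 on plastic, with no overlap. The means were 50.2 ± 12.5 and 15.6 ± 1.90 (SD, n = 3 each), a log2 fold change of 1.63 (SE 0.24, limma adjusted p = 5.3e-05). The third plastic library held only 9 Utf1 reads, the lowest count of any member in any library.

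Set per kilobase of exon, a scale on which genes can be compared, the order of the members differed between the cultures. On plastic, the mean level per kilobase was 71.8 ± 5.21 for Sall4, 61.4 ± 5.90 for Fgf4, 25.0 ± 4.49 for Pou5f1, 12.7 ± 1.55 for Utf1 and 8.92 ± 1.39 for Sox2 (SD, n = 3). Sall4 and Fgf4 lay within their combined spread of each other, and each of the other 3 lay below the gene above it by more than both SDs together. In gel, Fgf4 at 64.1 ± 3.50 and Pou5f1 at 62.5 ± 11.9 did not differ beyond their spread, nor did Sall4 at 41.3 ± 4.78, Utf1 at 40.9 ± 10.2 and, within its spread of Utf1, Sox2 at 26.4 ± 7.34. These orders depend on the annotated exon lengths.

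The defining markers of other cell types were nearly absent from the bulk table: none of 8 primitive endoderm and none of 4 mesoderm markers is listed, and none of 8 fibroblast markers passed the filter for testing. All 10 naive pluripotency markers were tested, 6 were higher and 2 lower in gel, against 18.3% and 18.6% of all tested genes. Among trophectoderm markers only Tfap2c was tested and was not called, and among neural markers only Tubb3, which was lower in gel.

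The related genes were counted in lists chosen with earlier results of these data known, to be read against the 18.3% of all tested genes called higher and the 18.6% called lower. Of 20 further OCT4 and SOX2 targets and co-regulated ES cell genes, all tested, 7 were higher, 4 lower and 9 not called. Their median log2 fold change was 0.10. Nanog, Zfp42, Esrrb, Nr0b1 and Prdm14 in this list are also among the naive markers. Among the larger rises were those of Esrrb, a nuclear receptor of the naive network, from 52.8 to 156 (log2 fold change 1.55), Lin28a, an RNA-binding protein (1.30), and Tet1, a 5-methylcytosine oxidase (0.76). The largest falls among called genes were in Lefty1, a Nodal antagonist, by 1.24, and in Spp1, Nanog and Zfp42, by 0.38, 0.34 and 0.32 on the log2 scale.

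Among 11 tested proteins known to associate with OCT4, 7 were higher, 1 lower and 3 not called in gel, with a median log2 fold change of 0.48. Nacc1, a BTB-domain factor, rose most, by a log2 fold change of 3.02 (SE 0.54) from 1.74 ± 1.08 to 16.3 ± 2.47 (SD, n = 3 each). Its plastic values were only 2.91, 0.78 and 1.52, so the size of this rise is uncertain. Zfp281 followed at 1.23, then the corepressor Trim28 at 0.97 and Sall1 at 0.96. Zfp143 was the 1 that fell, by 0.82. Of the NuRD subunits, 10 were tested: Chd4, the remodelling ATPase, Rbbp4 and Mbd3 rose by 1.11, 1.09 and 0.56, while the deacetylase Hdac2 and Rbbp7 fell by 0.70 and 0.43 on the log2 scale, and the other 5 were not called.

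Paralogs of the members gave 5 tested genes, with 2 higher, none lower and a median log2 fold change of 0.82. Both that rose were SALL family genes: Sall3, from 7.75 ± 3.12 to 22.6 ± 0.67 (SD, n = 3 each), with a log2 fold change of 1.55 (SE 0.34, limma adjusted p = 0.0016), and Sall1, which encodes a relative that also binds NuRD, from 46.4 ± 4.67 to 90.5 ± 6.85, with 0.96 (SE 0.16, limma adjusted p = 0.00017). Sall4 fell in the same libraries, and the difference between these paralogs was not tested. Of 9 tested genes of FGF receptors and signalling, Grb2, Sos1 and Map2k2 were higher by 1.10, 0.89 and 0.48 on the log2 scale, 3 were lower, among them Map2k1, which fell by 0.47, and 3 were not called. Of 3 tested genes of ERK feedback and response, Spred1 and Etv5 were higher, by 1.03 and 0.49, and Spry2 was not called.

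**Figure D2:**
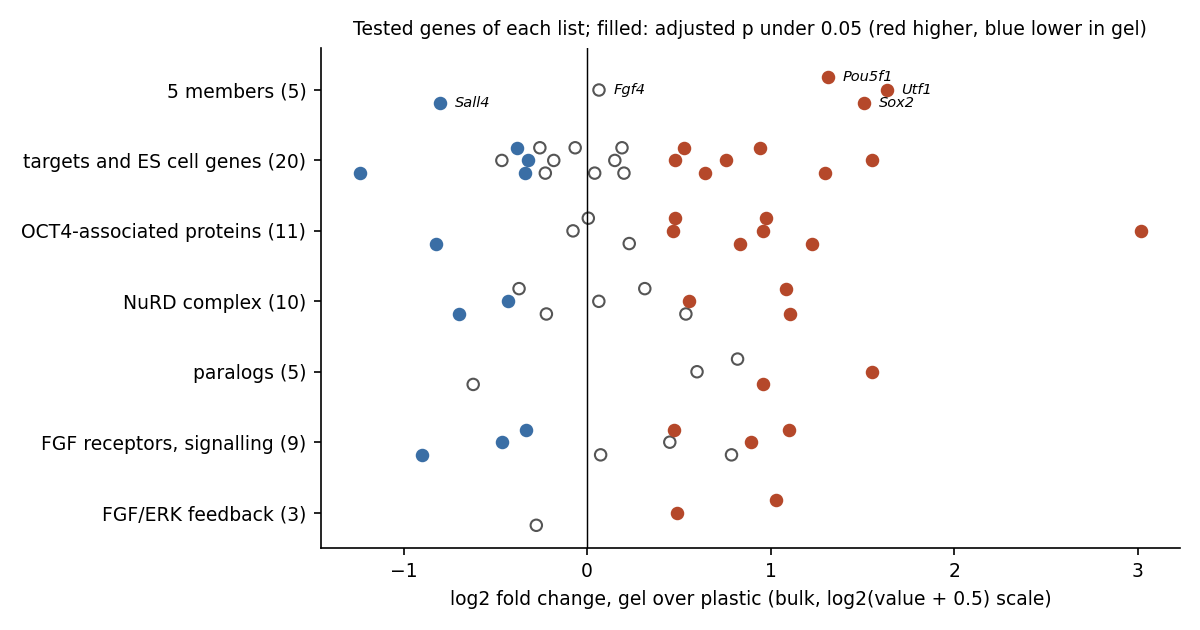
Log2 fold change, gel over plastic, of the 5 members and of the tested genes of each related list (number in brackets), each point 1 gene, filled where the limma adjusted p was under 0.05, red for higher and blue for lower in gel. Sall4 lies on the left at -0.80, Fgf4 near 0, and Nacc1, which had low plastic values, farthest right at 3.02.

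The genes whose bulk values were most alike over the 6 libraries (Pearson's r of log2 values, mean of at least 50) included Myo10 and Fscn1 for Pou5f1, Rpl30-ps10, Aprt and Rps15a-ps7 for Sox2, Eif2b3, Ythdf2 and Xrcc5 for Sall4, and Dck, Ier2 and Srp19 for Utf1, with r of at least 0.987. For Fgf4 the highest was Ss18 at 0.925, then Plin3 and Hsp90ab1. Between 84 and 187 genes reached an r of 0.95 with Pou5f1, Sox2, Sall4 or Utf1, and 0 did with Fgf4. All points share the 2 culture groups, so this likeness is a description.

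In single cells each condition is 1 library, so no comparison between them was tested. Levels are CPM, the UMIs of a gene scaled to the library's total over barcodes with at least 1000 UMIs, and intervals are exact 95% intervals that cover counting error only. The libraries held 725 (wild type, serum plastic), 2889 (wild type, 2i plastic), 112 (wild type, serum gel), 1200 (labelled JupLow) and 2153 (labelled JupHigh) such cells, with median depths of 1731.5 to 2465 UMIs. No cell barcode was shared between libraries. The gel library was the thinnest, with 236195 UMIs in all. The comparisons of JupHigh and JupLow with wild-type cells share their wild-type library.

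**Figure D3:**
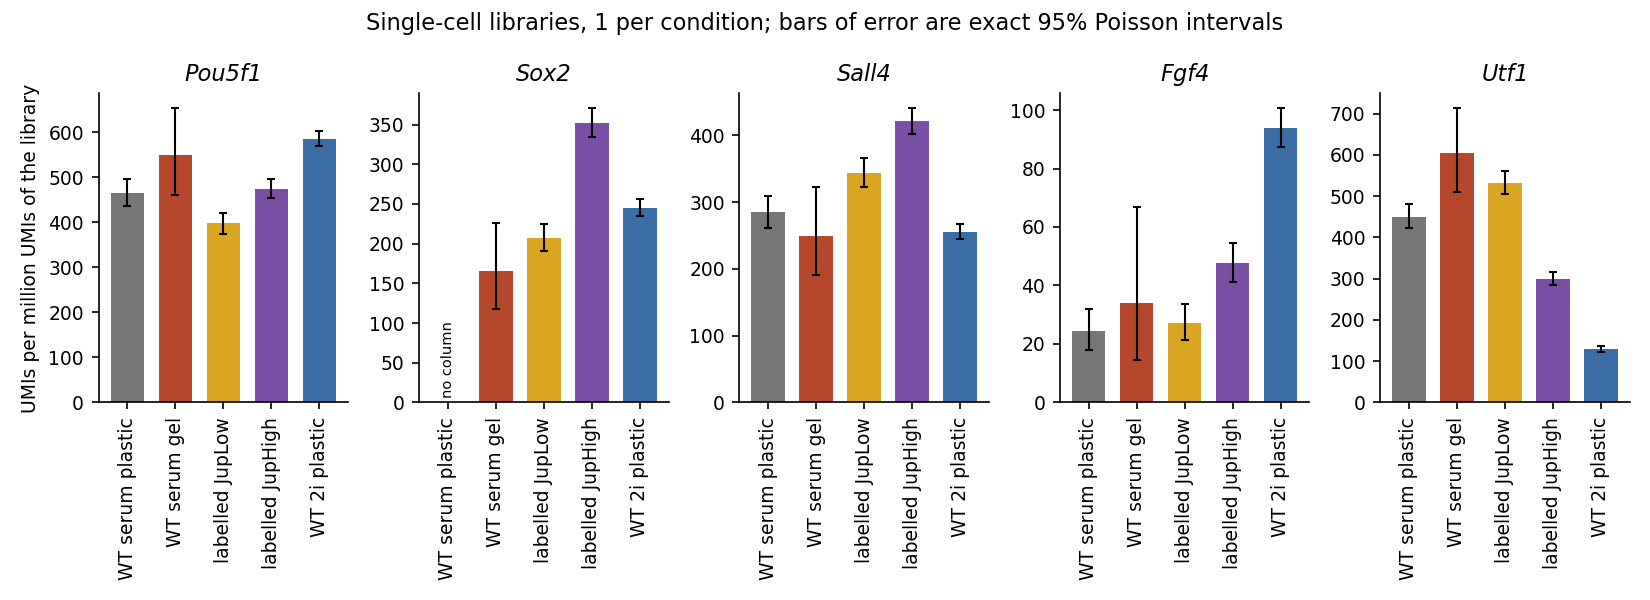
Level of each gene (CPM, linear axis from 0) in the 5 single-cell libraries, 1 per condition, with exact 95% Poisson intervals. Fgf4 is highest and Utf1 lowest in 2i/LIF, and Sox2 and Sall4 are highest in the library labelled JupHigh.

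Pou5f1 varied least of the 5 in these libraries, and its column in the wild-type serum table was neither missing nor low. It stood at 585 CPM (569 to 602) in 2i plastic, 550 (460 to 654) in serum gel, 475 (455 to 496) in the library labelled JupHigh, 465 (436 to 496) in wild-type serum plastic and 398 (375 to 422) in JupLow. The gel interval overlapped those of its neighbours in this order, JupHigh and wild-type serum overlapped each other, and JupLow lay below both.

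Sox2 could be read in 4 libraries, at 352 CPM (335 to 371) in the library labelled JupHigh, 245 (234 to 256) in 2i plastic, 207 (191 to 225) in JupLow and 165 (117 to 226) in serum gel. JupHigh stood above the other 3, and the last 2 intervals overlapped. In wild-type serum plastic, where Sox2 has no column, Sox2ot held 505 UMIs, or 250 CPM (229 to 273), against 4.23 to 12.5 CPM in the other 4 libraries. Added together, Sox2 and Sox2ot came to 250 CPM in wild-type serum and 250 in 2i plastic, 169 in serum gel, 220 in JupLow and 362 in JupHigh. How reads inside Sox2ot were assigned in each table is not given in the sources used here, and the sum, an addition made after seeing the data, cannot tell the 2 genes apart.

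**Figure D4:**
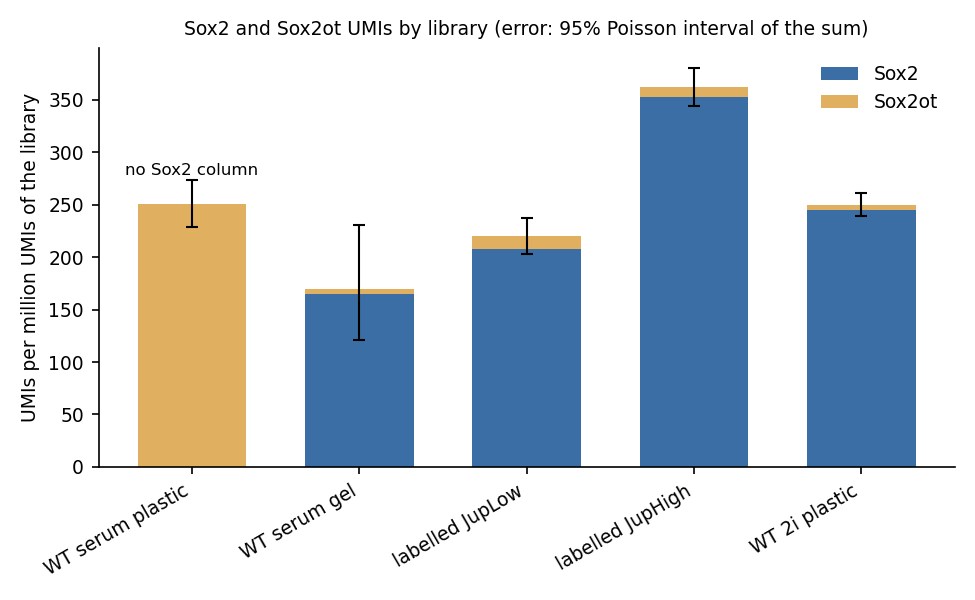
Stacked levels of Sox2 (blue) and Sox2ot (yellow) in CPM for each single-cell library, with the 95% Poisson interval of the sum. All UMIs of the pair are under Sox2ot in wild-type serum plastic, at 250, and nearly all are under Sox2 in the other 4 libraries.

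Sall4 stood at 421 CPM (402 to 441) in the library labelled JupHigh, 344 (323 to 366) in JupLow, 284 (262 to 309) in wild-type serum plastic, 255 (245 to 267) in 2i plastic and 250 (190 to 322) in serum gel. The last 3 overlapped, and both libraries labelled with Jup lay above wild-type serum and 2i plastic.

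Fgf4 was rare in serum: 24.3 CPM (18 to 32.1) in wild-type plastic, from 49 UMIs, 27.1 (21.4 to 33.8) in JupLow and 33.9 (14.6 to 66.7) in gel, from 8 UMIs. Those 3 could not be ordered at this depth. It was at 47.6 (41.3 to 54.5) in JupHigh and at 93.8 (87.3 to 101) in 2i plastic, above the wild-type serum and JupLow values in both.

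Utf1 was lowest in 2i plastic and next lowest in JupHigh, the 2 libraries with the highest Fgf4. It stood at 605 CPM (510 to 713) in serum gel, 533 (506 to 560) in JupLow, 450 (422 to 481) in wild-type serum plastic, 300 (284 to 317) in JupHigh and 129 (122 to 137) in 2i plastic. Gel and JupLow overlapped, and every later step in the order exceeded both counting intervals.

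Between the 2 libraries labelled with Jup, Pou5f1, Sox2, Sall4 and Fgf4 were higher and Utf1 lower in JupHigh. As log2 ratios of JupHigh over JupLow these were 0.26 (0.15 to 0.36) for Pou5f1, 0.76 (0.63 to 0.90) for Sox2, 0.29 (0.18 to 0.41) for Sall4, 0.81 (0.43 to 1.21) for Fgf4 and -0.83 (-0.94 to -0.72) for Utf1. None of the 5 reached 2-fold at this setting, which 2.63% of 6950 genes did upwards and 8.4% downwards. Utf1 passed it with barcodes of at least 500 UMIs, at -1.09, and with every barcode, at -1.13. The interval excluded 0 for all 5, as for 51.9% of those genes, and the median over them was -0.13. Scaling by trimmed means in place of total UMIs raises each of these ratios by 0.11.

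Between media, in wild-type cells on plastic, the log2 ratio of 2i over serum was 1.95 (1.53 to 2.40) for Fgf4, 0.33 (0.23 to 0.43) for Pou5f1 and -1.80 (-1.93 to -1.67) for Utf1. In this pair 9.76% of 7428 genes were at least 2-fold higher and 14.5% at least 2-fold lower, and the interval excluded 0 for 64.4%. Sall4 was at -0.16 (-0.29 to -0.02), a difference that ended at -0.02 with trimmed-mean scaling, which raises every ratio of this pair by 0.14, and grew to -0.28 (-0.39 to -0.17) with barcodes of at least 500 UMIs and -0.33 (-0.42 to -0.24) with every barcode. The pair Sox2 plus Sox2ot stood at -0.0022 (-0.14 to 0.14), but at -0.20 (-0.32 to -0.09) with barcodes of at least 500 UMIs and -0.33 (-0.42 to -0.24) with every barcode. The last setting adds 5905 barcodes under 500 UMIs to wild-type serum and only 1 to 2i, so the sets are unlike.

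Set against 2i cells, JupHigh held less Pou5f1 and Fgf4 and more Sox2, Sall4 and Utf1. The log2 ratios of JupHigh over 2i were -0.30 (-0.38 to -0.23) for Pou5f1, 0.52 (0.43 to 0.62) for Sox2, 0.72 (0.63 to 0.81) for Sall4, -0.98 (-1.21 to -0.76) for Fgf4 and 1.22 (1.10 to 1.33) for Utf1. Those of JupLow over 2i were -0.56, -0.24, 0.43, -1.79 and 2.04 in the same order, with Pou5f1, Fgf4 and Utf1 farther from 2i. Utf1 was thus at least 2-fold higher than in 2i in both, as were 3.59% of 6859 genes in JupHigh and 11.5% of 7297 in JupLow. Fgf4 was at least 2-fold lower in JupLow, as were 8.1% of genes there, and just short of 2-fold in JupHigh, where 6.47% passed it. Intervals that exclude 0, as all 10 of these do, were found for 63.9% and 67.7% of genes. The Sox2 value of JupLow turned to 0.05 with barcodes down to 500 UMIs and to 0.21 with every barcode, so its direction is not settled. The setting with every barcode compares unlike sets: it adds 4405 barcodes under 500 UMIs to JupLow, with Sox2 at 364 CPM, and 1 to 2i. Against wild-type serum cells, JupHigh had log2 ratios of 0.03 (-0.08 to 0.14) for Pou5f1, 0.56 for Sall4, 0.97 for Fgf4 and -0.59 for Utf1. The last 3 differed beyond counting error, as did 58.6% of 7122 genes. The Pou5f1 value is 0.22 with trimmed-mean scaling, which raises every ratio of that pair by 0.19.

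Gel against plastic could also be read in serum, from 112 gel cells. The log2 ratio was 0.43 (0.16 to 0.68) for Utf1, 0.24 (-0.03 to 0.51) for Pou5f1, -0.19 (-0.60 to 0.20) for Sall4 and 0.48 (-0.81 to 1.57) for Fgf4, so that at this setting Utf1 differed beyond counting error and the intervals of the other 3 included 0. The Pou5f1 interval excluded 0 at other settings, such as 0.25 (0.05 to 0.45) with barcodes of at least 500 UMIs and 0.28 (0.11 to 0.44) with every barcode. The interval excluded 0 for 20.1% of 7401 genes. Over the alternatives the Utf1 ratio ranged from 0.19 to 0.57. In barcodes under 500 UMIs, Utf1 was at 625 CPM in gel and 621 in wild-type serum plastic. In bulk, in another medium, line and assay, Utf1 was also higher in gel. The pair Sox2 plus Sox2ot was at -0.56 (-1.07 to -0.10), and over the alternatives it ranged from -0.79 to -0.07, the last with every barcode.

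Shares of cells with at least 1 UMI, after every cell was thinned to 1000 UMIs, followed the levels in most libraries. Pou5f1 was seen in 40.7% (38.9 to 42.6) of cells in 2i plastic, 34.0% in JupHigh, 32.1% in wild-type serum, 28.4% in JupLow and 47.3% (37.8 to 57.0) in serum gel. Sox2 was seen in 29.2% of JupHigh cells, 22.6% of 2i cells and 18.1% of JupLow cells. Sall4 was seen in 33.6% of JupHigh cells, 26.5% of JupLow cells, 24.7% of wild-type serum cells and 22.9% of 2i cells. Fgf4 was seen in 8.0% (7.03 to 9.05) of 2i cells, 4.27% of JupHigh cells, 2.5% of JupLow cells and 2.07% (1.16 to 3.39) of wild-type serum cells, and in 1 of 112 gel cells. Utf1 was seen in 13.3% (12 to 14.5) of 2i cells and 41.2% (38.4 to 44.1) of JupLow cells. Without thinning every share was higher, for example 64.7% for Pou5f1 and 21.4% for Fgf4 in 2i plastic.

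**Figure D5:**
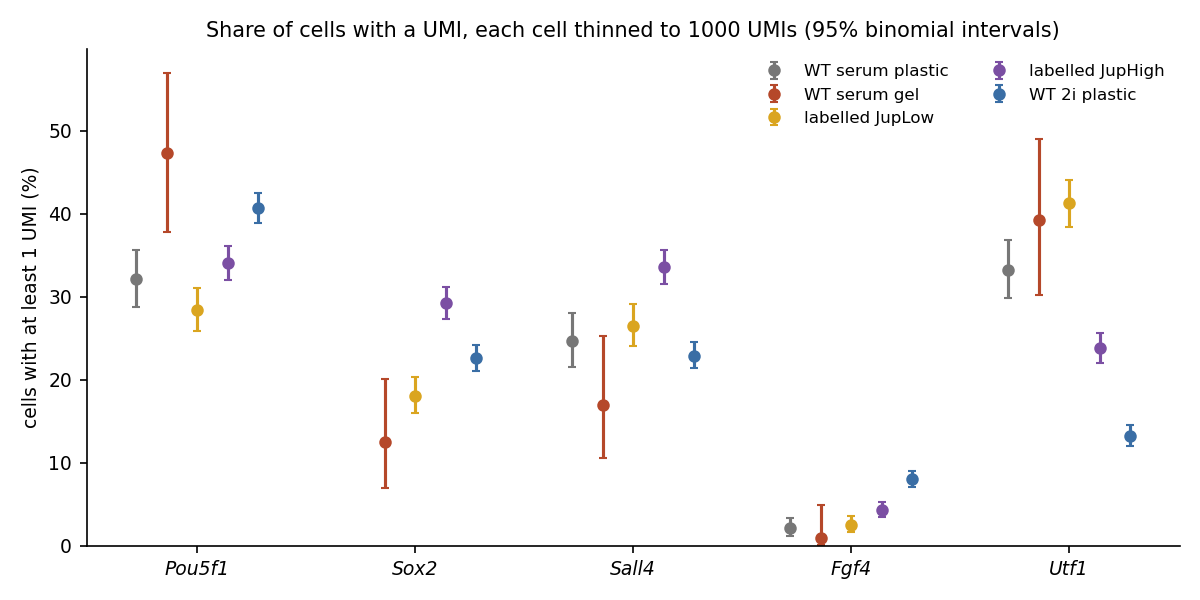
Percent of cells with at least 1 UMI of each gene after thinning every cell to 1000 UMIs, by library, with exact 95% binomial intervals. Fgf4 stays at or below 8.0% in every library, and Utf1 goes from 13.3% in 2i plastic to 41.2% in JupLow.

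Barcodes under 500 UMIs, which were not taken as cells, also held these transcripts. Sox2 was at 760 CPM in such barcodes of the library labelled JupHigh and 352 in its cells, Utf1 at 939 and 533 in JupLow, and Pou5f1 at 439 and 465 in wild-type serum. The 2i table holds 1 such barcode, so no level is given for it. The part of free RNA in the differences between libraries was not tested.

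At 1000 UMIs per cell, cells with UMIs of both Pou5f1 and Sox2 made up 9.73% (8.67 to 10.9) of 2i cells, where the product of the separate shares is 9.19%. In JupHigh they made up 12.1% (10.8 to 13.6) against a product of 9.95%, and cells with Sox2 and Utf1 made up 9.20% (8.01 to 10.5) against 6.96%. In JupLow, Pou5f1 and Utf1 were seen together in 14.4% (12.5 to 16.5) of cells against a product of 11.7%. Cells without a UMI of any member were 30% in 2i, 28.3% in JupHigh and 29.5% in JupLow. Of 46 such pairs over the 5 libraries, 32 lay above their product, 10 of them with the whole interval. Those 10 were all in JupHigh or JupLow and none in wild-type cells. Whether an interval clears its product also depends on the number of cells, so this count alone does not compare the libraries. Pou5f1 and Sall4 were at 9.38% (7.36 to 11.7) against 7.93% in the 725 wild-type serum cells. In 2i they were at 10.2% (9.16 to 11.4) against 9.34%, and in JupHigh at 13.2% (11.8 to 14.7) against 11.4%. Sox2 and Fgf4 in JupLow, among the 10, rested on 11 cells with both. No pair had its whole interval below. Sox2 and Utf1, for example, were at 7.25% against 7.46% in JupLow and at 2.94% against 2.99% in 2i. The products carry counting error of their own, and these values are a description.

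Within 4 of the libraries, cells at or above the median depth had more Pou5f1 CPM than those below it, for example 613 (593 to 632) against 506 (476 to 537) in 2i plastic and 434 (406 to 465) against 319 (284 to 358) in JupLow. The gel library showed 538 and 580, with overlapping intervals. Utf1 in 2i went the other way, at 119 (110 to 128) in the deeper cells and 159 (143 to 177) in the shallower ones, as did Sox2, at 223 and 309. The part of depth in the differences between libraries was not tested.

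Markers of other cell types moved with some of these contrasts. Summed over 9 trophectoderm markers, wild-type serum held 832 CPM, JupLow 911 and gel 241, against 54.9 in 2i and 49.4 in JupHigh; in the first 3 most of it was Krt8 and Krt18, while Cdx2 was at 3.3 CPM or less in all 5 libraries and at 0 in gel. Summed primitive endoderm markers were at 583 in wild-type serum, 135 in gel, 106 in JupLow, 47.3 in JupHigh and 6.76 in 2i, where Gata6 has no column and Sox17 was at 0.12. Fibroblast markers summed to 3.50 to 39.6, mesoderm markers to 3.82 to 12.7 and neural markers to 55.7 to 171. The 10 naive markers summed to 2616 in 2i and 2783 in JupHigh against 668 to 872 in the other 3. The part of these cells in the member values was not tested.

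Between the 2 libraries labelled with Jup, part of the target and co-regulated genes were higher in JupHigh. Of these 20 genes 19 reached 20 CPM in either library. Among them, 7 were at least 2-fold higher in JupHigh (2.63% of all genes) and none at least 2-fold lower (8.4%). The median log2 ratio was 0.24. The largest were Nanog, at 450 against 92.4 CPM (log2 ratio 2.28, 2.10 to 2.47), Esrrb at 1.98, Nr0b1, an orphan nuclear receptor, at 1.86 and Zfp42, the gene of REX1, at 1.63. The ratios of the 5 members, from -0.83 to 0.81, were smaller than these. Nanog, Esrrb, Nr0b1 and Zfp42 are also among the naive markers summed above.

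Of the NuRD genes, 0 of 11 reached 2-fold, with Mta3 at -0.72, Hdac1 at -0.26, Gatad2a at -0.21 and Chd4 at -0.18. Of the OCT4-associated genes 1 of 11 did, Arid3a, named after its value was seen, at -1.68, and the largest well-covered ratios were 0.49 for Wdr5, 0.37 for Parp1, -0.36 for Arid1a and 0.24 for Rif1. Of the paralogs 4 of 7 were at least 2-fold lower in JupHigh (8.4% of all genes), with a median of -1.37. Pou3f1, a POU factor of primed and neural cells, was at 6.26 against 212 CPM (log2 ratio -5.08, -5.69 to -4.52) and Sox11 at -1.38, while Pou2f3 and Pou2f1 were at -0.44 and -0.14. The SALL paralogs, below the level set for naming and added after their values were seen, went both ways: Sall1 at 0.57 (0.19 to 0.95), Sall3 at 2.36 (1.12 to 3.87), from 46 and 6 UMIs, and Sall2 at -1.54 (-2.45 to -0.68), from 18 and 35 UMIs.

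On the FGF side, 1 of 11 receptor and signalling genes was at least 2-fold lower in JupHigh, near the 8.4% of all genes: Fgfr1, named after its value was seen, at -1.05. Among the larger ratios of genes with at least 100 CPM were Fgfr2 at -0.41, Grb2 at -0.36 and Map2k1 at -0.24. Of 7 feedback and response genes 2 were at least 2-fold lower (8.4% of all genes) and none higher (2.63%), with Dusp6, an ERK phosphatase, at -1.71 (-2.02 to -1.42), Spred1 at -0.97 and Etv5 at 0.61. Fgf4 itself was higher in JupHigh, at 47.6 against 27.1 CPM.

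The genes most like each member over the 5 libraries (Pearson's r of log2(CPM + 10)) were Dnmt3b (r = 0.999), Fabp5 and Slc38a4 for Utf1, Kdm5b, Tet1 and Adam23 for Sall4, Fnbp1, Pole4 and Cenph for Fgf4, and Snrpd3, Ubald2 and Rps12-ps19 for Pou5f1. Dnmt3b, a DNA methyltransferase gene, stood at 554.5, 150, 711.3, 646.9 and 350.3 CPM in wild-type serum plastic, 2i plastic, serum gel, JupLow and JupHigh. With Utf1 44 of 2349 genes reached an r of 0.95, with Fgf4 32 of 2350, with Pou5f1 19 and with Sall4 12. Sox2, without a column in 1 table, was not compared. The points share their library's depth, so this is a description over 5 values.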

How the data were processed

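RNA of mouse ES cells was measured in 6 bulk and 5 single-cell libraries. The submitters' processing notes name FastQC, STAR, featureCounts, DESeq2 and Scanpy and the builds mm10 and GRCm38, with no roles or versions. The deposited bulk values are a signal: gene counts divided by 1 factor per library, as judged from the values. Whole reads were recovered for 100% of values within 0.01 reads, giving 637235 to 2583256 reads per library. The single-cell tables hold unnormalized UMI counts, as deposited by the authors.

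Columns and barcodes were joined to samples by name. In bulk, 7878 of 12588 genes passed edgeR's default expression filter on recovered reads, all 5 members among them, and were tested with limma 3.58.1 on log2(value + 0.5) with an intensity trend and Benjamini-Hochberg adjustment. With 200 simulated 4-fold changes among 7878 genes, 93% were recovered and 6.53% of calls were false. Smaller changes, such as those of the members, were not simulated, and far fewer genes changed there than were called in the data. On recovered reads, edgeR 4.0.16 (quasi-likelihood, TMM) and DESeq2 1.42.0 served as alternatives. Same-numbered gel and plastic libraries did not deviate together, so no pairing was used. In no pair of replicates did the reads agree within sampling noise.

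For single cells, barcodes with at least 1000 UMIs were taken as cells. Barcodes that both start and end with 8 G, and 1 incomplete line of the gel table, were left out. No doublet caller was run, and columns without a gene name held at most 0.5% of UMIs. Ratios have exact conditional binomial intervals.

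The members and lists were chosen with earlier results of these data known. From each list the text names up to 4 called genes per direction with the largest bulk change, and for single cells up to 4 genes with the largest JupHigh over JupLow ratio among those with at least 100 CPM (UMIs scaled to a common total), plus the 3 genes most like each member and the genes overlapping one; a few genes that this rule names are not reported here. Motifs were searched with Python 3.11.15.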

Additional observations from a re-analysis of the deposited data

Results flagged for a closer look

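At the Sox2 locus the gel contrast had opposite signs in the 2 assays, but Sox2 alone could not be compared in single cells. There, all 505 UMIs of the pair Sox2 plus Sox2ot in wild-type serum plastic were Sox2ot. In serum gel 39 of 40 were Sox2. In bulk libraries in 2i/LIF Sox2 was higher in gel in 3 of 3 libraries, with a log2 fold change of 1.51. In single cells in serum/LIF, where only the sum of Sox2 and Sox2ot can be compared, the log2 ratio of gel over plastic was -0.563 (95% interval -1.07 to -0.10), from 40 UMIs in gel. The difference between the 2 was not tested, and medium, line and assay differ along with it and cannot be told apart. With every barcode included the single-cell ratio was -0.07.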

How the results depend on the processing

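The bulk calls of Pou5f1, Sox2, Sall4 and Utf1 kept their direction and their side of the threshold under every alternative run for them, 13 each and 12 for Utf1, which gave no value with a minimum of 10 reads in all 6 libraries. Their log2 fold changes ranged from 1.16 to 1.48, 1.32 to 1.76, -0.88 to -0.71 and 1.39 to 1.81, and their adjusted p-values reached at most 0.00049, 0.0018, 0.00059 and 0.00064. Fgf4 was called under none of 13, and without plastic replicate 2 its log2 fold change turned to -0.015, within a range of -0.015 to 0.12 leaving out 1 library. The 2906 called genes became 727 with a log2 fold change of at least 1 in size, 3158 with edgeR, 2087 with DESeq2, and 2361 to 2833 leaving out 1 library. With a replicate block, although numbers share no deviation (r of -0.05, 0.02 and 0.02), 2988 were called. These numbers follow the titles, and the description of plastic replicate 2 gives it another number. In single cells, of 308 alternative ratios 269 stayed within their counting interval, 35 moved and 4 reversed. In all 16 changed sign, and in 12 of these the reported interval already included 0. JupHigh over JupLow was 0.36 for Pou5f1 with trimmed-mean scaling, and for Utf1 -1.09 with at least 500 UMIs, -1.13 with every barcode and -0.72 with trimmed-mean scaling. JupLow over 2i reversed for Sox2, to 0.052 with at least 500 UMIs and 0.21 with every barcode, and for Sox2 plus Sox2ot, to 0.077 and 0.22. With every barcode, barcodes under 500 UMIs enter JupLow but hardly 2i, which holds 1. The cause was not tested. Depth limits the gel cells and Fgf4 in serum.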
